A study of Mus musculus with 12 samples.

Results

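The genes described here are 32 genes of the enteroendocrine lineage of the gut: 12 peptide hormones, the serotonin-synthesis enzyme Tph1, 6 proteins of secretory granules, 3 genes of prohormone processing, the calcium-binding protein Scgn and 9 transcription factors. They were found by matching the gene symbols and aliases of the array's annotation to this list. Of the 32 genes, 31 had a probe (44 probes in all, out of 45281 on the array and 19057 named genes), and the transcription factor gene Fev had none. Expression had been measured on Illumina mouse beadchips, which report 1 brightness per probe, in intestine of C57BL/6 mice aged 3 months. The 12 arrays form 4 groups of 3: small intestine of mutant mice, small intestine of wild-type mice, colon of mutant mice and colon of wild-type mice. The study asked what the loss of Cftr, an epithelial chloride and bicarbonate channel, does to normal intestine.

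Mutant mice were Apc+/+ Cftr fl/fl-Villin-Cre, so that Cre recombinase driven by the Villin promoter, active in intestinal epithelium, deletes the floxed Cftr gene. Wild-type mice were Apc+/+ Cftr+/+. Their genotype field also carries Villin-Cre, while the growth protocol gives them without it, and the design text words the mutants as deficient in Apc as well. All 4 groups are Apc+/+ in the genotype field, which was followed here. The small-intestinal samples are wall of the mid-duodenum with its villi removed, so they hold stroma and other cells beside crypt epithelium. The colon samples are described as epithelium of the distal colon in the design text and as whole tissue in 1 protocol. Gut region and, by the design text, dissection differ together between the tissues, so they cannot be told apart in any tissue difference. Each mouse gave both tissues, but no label ties an array to a named mouse, so the p-values measure only the spread between these arrays, which may in part be technical.

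Enteroendocrine cells are rare cells scattered through the gut epithelium that sense the contents of the lumen and release peptide hormones or serotonin. They arise from crypt progenitors that briefly express the transcription factor Neurog3, and then mature under factors such as Neurod1, Insm1, Pax4, Pax6 and Nkx2-2. Their hormones differ along the gut: ghrelin belongs to the stomach and upper gut, secretin, cholecystokinin and the incretin GIP to the upper small intestine, and peptide YY and Insl5 to the colon. Several of the same genes, among them Sst, Tac1, Vip and the granins, are also used by neurons of the gut wall.

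Hormone genes differed widely between the 2 tissues, and the promoters of 4 of them are shown because they cover both directions of contrast and include the full cyclic AMP response element. Each is the window from 250 bases before to 50 bases after the gene's start, 300 bases in RefSeq's annotation of GRCm38.p6, read 5′ to 3′ on the gene's strand. Capitals mark CANNTG, the E-box letters that basic helix-loop-helix factors such as Neurog3 and Neurod1 are known to bind, and TGACG, the shorter form of the cyclic AMP response element TGACGTCA, each on either strand. Cck and Sst were higher in small intestine, and Pyy and Insl5 were higher in colon. The Cck window is chr9:121495645-121495944, that of Sst chr16:23890795-23891094, that of Pyy chr11:102107783-102108082 and that of Insl5 chr4:103027222-103027521, all on the minus strand. RefSeq lists 2 starts for Pyy and 2 for Insl5, and 1 window is shown for each.
Cck: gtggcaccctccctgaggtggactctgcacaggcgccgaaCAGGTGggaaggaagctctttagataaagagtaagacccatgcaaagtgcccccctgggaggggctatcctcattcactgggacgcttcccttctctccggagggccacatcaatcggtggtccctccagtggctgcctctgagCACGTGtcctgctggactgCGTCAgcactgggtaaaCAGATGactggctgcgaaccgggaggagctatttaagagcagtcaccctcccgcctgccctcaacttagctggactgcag
Sst: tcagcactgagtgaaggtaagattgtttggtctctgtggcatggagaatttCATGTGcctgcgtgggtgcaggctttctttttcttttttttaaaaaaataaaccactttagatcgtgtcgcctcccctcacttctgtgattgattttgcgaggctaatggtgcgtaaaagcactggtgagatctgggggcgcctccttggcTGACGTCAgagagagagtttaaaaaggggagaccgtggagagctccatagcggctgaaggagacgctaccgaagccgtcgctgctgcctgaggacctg
Pyy: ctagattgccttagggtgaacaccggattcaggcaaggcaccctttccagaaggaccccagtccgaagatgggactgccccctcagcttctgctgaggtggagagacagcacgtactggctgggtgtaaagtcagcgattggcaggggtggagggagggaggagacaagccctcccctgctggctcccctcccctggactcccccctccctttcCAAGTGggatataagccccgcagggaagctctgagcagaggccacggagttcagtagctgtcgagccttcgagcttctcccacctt
Insl5: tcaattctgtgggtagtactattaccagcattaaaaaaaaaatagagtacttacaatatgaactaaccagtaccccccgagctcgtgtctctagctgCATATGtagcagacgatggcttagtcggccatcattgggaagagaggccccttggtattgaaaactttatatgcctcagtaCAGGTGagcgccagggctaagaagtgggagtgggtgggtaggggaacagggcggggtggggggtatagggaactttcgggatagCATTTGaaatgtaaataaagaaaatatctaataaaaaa

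The Cck window holds 3 E-boxes and 1 TGACG. The Sst window holds the whole element TGACGTCA, which starts at position -48 from the gene's start, and 1 E-box. The Pyy and Insl5 windows hold 1 and 3 E-boxes and no TGACG in these letters. The other called hormones did not all follow this split. Gip and Ghrl, higher in small intestine, held no TGACG, and Nts, lower there, held it, while Gcg, lower there, held none. Over the 28 members with a promoter in the table, CANNTG was present in 22 (78.6%), against 72.1% of 27025 promoters of the same length. TGACGTCA was present in 5 members (17.9%, namely Chgb, Pax6, Pcsk1, Scg2 and Sst), against 1.88% of all promoters, and TGACG, which overlaps it, in 13 (46.4%) against 21.0%. GATAA, the GATA box, was in 11 members (39.3%) against 25.8%, and TTTATNG, a Cdx2 box, in 2 (7.14%) against 11.3%, all on both strands. These are letter matches, not tested for binding.

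The deposited values are on the log2 scale and end in a floor near 7.70, so a gene without signal reads about 7.70, not 0. A probe counted as bright above 7.78, 3 SD over that floor, and genes bright on at least 3 of the 12 arrays were tested, 26 of the 32 members and 15909 features in all. The gastrin gene Gast, the prohormone convertase Pcsk1 and the transcription factors Neurod1, Pax4 and Pax6 had no probe bright on 3 arrays and have no test. Near the floor a log2 difference understates the change, so sizes below are those of the deposited scale, and where a group was dim on all its arrays a bound is given. The share of bright probes was 42.9% to 43.0% on every array. The Cftr probe did not separate the genotypes, with a mean of 8.18 ± 0.11 in small intestine of mutants (SD, n = 3) and 8.22 ± 0.05 in that of wild-type mice, and of 8.11 ± 0.15 in colon of mutants and 8.02 ± 0.10 in that of wild-type mice. Where on the transcript this probe sits was not known here, so it does not check the genotype labels.

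Peptide YY, the ileal and colonic hormone that slows gastric emptying and appetite, had the widest tissue contrast among the members. Pyy read 7.77, 7.76 and 7.76 in mutant small intestine, against 10.71, 11.04 and 10.91 in mutant colon. In wild-type mice it read 7.72, 7.78 and 7.71 in small intestine, against 10.84, 10.91 and 10.86 in colon. All 6 small-intestinal arrays were dim and all 6 colon arrays were far above the limit. The level was therefore at least 8.61-fold lower in small intestine of mutant mice and at least 8.49-fold lower in small intestine of wild-type mice (limma adjusted p = 1.84e-10 and 1.66e-10). Each bound sets the colon mean against the lowest bright signal of the small-intestinal arrays.

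Insl5, a relaxin-family peptide of colonic L cells, had the same layout. It read 7.71, 7.68 and 7.70 in mutant small intestine, against 10.10, 10.59 and 10.13 in mutant colon, and wild-type mice gave 7.72, 7.68 and 7.70 in small intestine, against 10.04, 10.22 and 9.91 in colon. Insl5 was dim in every small-intestinal sample. It was at least 5.62-fold lower there in mutant mice and at least 4.84-fold lower in wild-type mice (limma adjusted p = 4.81e-08 and 8.00e-08).

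Gcg, the proglucagon gene that gives GLP-1 and GLP-2 in L cells, was bright in both tissues. It read 9.08, 8.99 and 9.39 in mutant small intestine, against 10.64, 10.88 and 10.46 in mutant colon. The wild-type values were 9.36, 9.26 and 9.48 in small intestine, against 10.74, 10.62 and 10.81 in colon. No small-intestinal array reached any colon array. The differences, small intestine minus colon, were -1.51 ± 0.12 (SE) in mutant mice and -1.36 ± 0.12 in wild-type mice (limma adjusted p = 3.73e-06 and 7.07e-06).

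Neurotensin, a peptide of N cells, was faint everywhere. Nts read 7.89, 7.91 and 7.90 in mutant small intestine, against 8.09, 8.27 and 8.13 in mutant colon, and 7.83, 7.94 and 7.84 in wild-type small intestine, against 8.21, 7.91 and 8.13 in wild-type colon. The wild-type groups overlapped through colon array 2. Nts was lower in small intestine by -0.26 ± 0.07 in mutant mice and -0.21 ± 0.07 in wild-type mice (limma adjusted p = 0.0126 and 0.0342). The mutant call was lost without colon mutant 2 (adjusted p = 0.05001), and the wild-type call without colon wild type 1 or 3 or small-intestinal wild type 1 or 3 (adjusted p from 0.0961 to 0.128). A further Nts probe was bright on 0 arrays.

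The opposite direction was led by ghrelin, the hunger hormone best known from the stomach. Ghrl read 9.77, 9.53 and 9.51 in mutant small intestine, against 7.83, 7.89 and 7.77 in mutant colon. The wild-type arrays gave 9.74, 9.71 and 9.75 in small intestine, against 7.75, 7.76 and 7.67 in colon. In wild-type colon every array was dim, and in mutant colon 2 of 3 were just above the limit. Ghrl was higher in small intestine by 1.77 ± 0.06 in mutant mice, and at least 3.86-fold higher in wild-type mice (limma adjusted p = 7.68e-09 and 2.57e-09). Its second probe gave the same direction with smaller differences, 0.97 in mutant and 1.0 in wild-type mice.

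Cholecystokinin, which empties the gall bladder and stimulates pancreatic secretion, also belonged to the small intestine. Cck read 9.42, 9.57 and 9.45 in mutant small intestine, against 7.99, 7.88 and 8.05 in mutant colon, and 9.42, 9.46 and 9.47 in wild-type small intestine, against 7.79, 7.85 and 7.88 in wild-type colon. The tissues did not overlap, and the colon values lay just above the limit. The differences were 1.505 ± 0.05 in mutant and 1.61 ± 0.05 in wild-type mice (limma adjusted p = 5.18e-09 and 2.67e-09).

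Gip, the incretin of K cells, read 8.76, 8.83 and 9.04 in mutant small intestine, against 7.83, 7.85 and 7.86 in mutant colon. Wild-type values were 8.88, 8.83 and 8.90 in small intestine, against 7.85, 7.82 and 7.79 in colon. All colon arrays sat near the limit and all small-intestinal arrays well above it. Gip was higher in small intestine by 1.03 ± 0.06 in mutant and 1.05 ± 0.06 in wild-type mice (limma adjusted p = 3.62e-07 and 2.75e-07).

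Somatostatin, the inhibitory peptide of D cells, read 10.12, 10.03 and 10.21 in mutant small intestine, against 8.71, 8.37 and 8.57 in mutant colon. In wild-type mice Sst read 10.15, 10.21 and 10.09 in small intestine, against 8.65, 8.51 and 8.62 in colon. The tissues were far apart in both genotypes, by 1.57 ± 0.08 in mutant and 1.56 ± 0.08 in wild-type mice, small intestine minus colon (limma adjusted p = 1.35e-07 and 1.23e-07). Sst is also made by gut neurons, and its promoter is the one above with the full TGACGTCA.

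**Figure D1:**
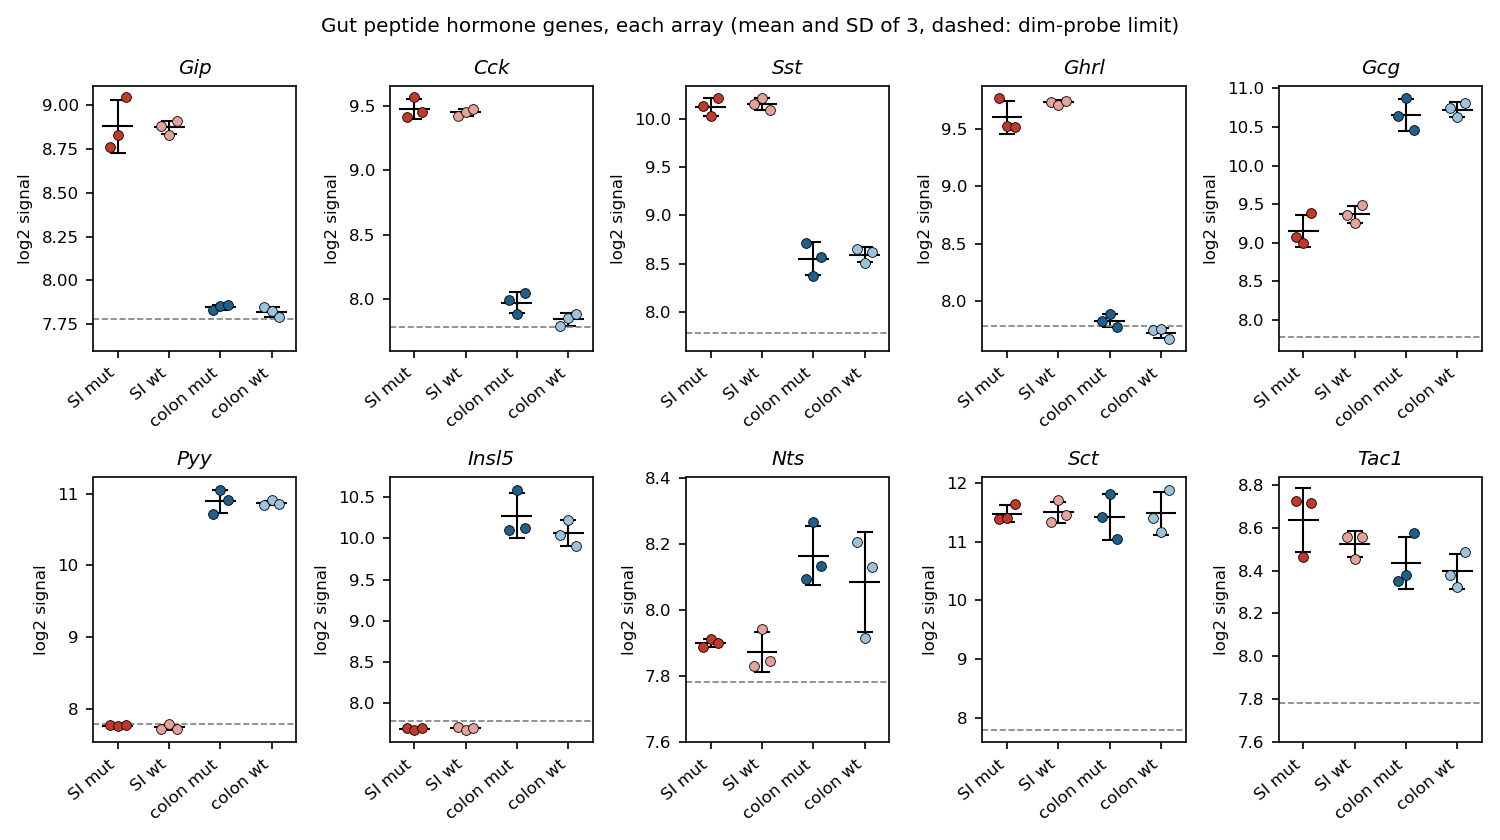
Deposited log2 values of 10 hormone genes, 1 panel per gene. Each dot is 1 array in mutant small intestine (SI mut), wild-type small intestine (SI wt), mutant colon (colon mut) and wild-type colon (colon wt), bars are the mean and SD of 3 arrays, and the dashed line is the dim-probe limit of 7.78. Pyy and Insl5 sit below the limit in small intestine, Ghrl, Cck and Gip near it in colon, and the genotypes lie close together within each tissue.

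Secretin, which drives bicarbonate secretion into the duodenum, was bright in both tissues and not separated. Sct read 11.39, 11.41 and 11.64 in mutant small intestine, against 11.42, 11.82 and 11.04 in mutant colon, and 11.34, 11.71 and 11.45 in wild-type small intestine, against 11.41, 11.17 and 11.89 in wild-type colon. The colon arrays enclosed the small-intestinal ones. The difference was 0.05 in mutant mice (95% interval -0.42 to 0.52) and 0.01 in wild-type mice (-0.46 to 0.49). Differences of the sizes within these intervals remain possible. Tac1, the substance P precursor, differed by 0.20 ± 0.08 and 0.13 ± 0.08 in mutant and wild-type mice and did not pass (limma adjusted p = 0.0766 and 0.248), and a further Tac1 probe was bright on 0 arrays. Iapp, the islet amyloid peptide, stayed around the limit throughout, with differences of -0.01 and -0.04.

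Over all members, limma called 11 of 26 between the tissues in mutant mice (42.3%), 7 higher and 4 lower in small intestine, against 39.6% of all features, 17.4% higher and 22.2% lower. In wild-type mice 12 of 26 were called (46.2%), 7 higher and 5 lower, against 41.4% of all features, 17.9% higher and 23.5% lower. The members' shares of calls were thus close to those of the arrays as a whole. By unadjusted p under 0.05 the counts were 13 in mutant mice (46.3% of all features) and 17 in wild-type mice (47.9%), and the tissues did not overlap for 13 members in mutant mice (48.9% of all features) and 17 in wild-type mice (54.1%). Of the 11 hormones tested 8 were called in each genotype, 4 higher and 4 lower, and these 8 were the same genes in both. Differences over 1 on the log2 scale were found for 8 members in each genotype, 7 of them hormones, and 17 of the 26 lay within 0.35. The shares of all features with differences of these sizes were not counted, so these counts describe the members alone.

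Carboxypeptidase E, which trims basic residues from prohormones, was the remaining member with a difference over 1. Cpe read 9.62, 9.68 and 9.64 in mutant small intestine, against 8.23, 8.53 and 8.26 in mutant colon, and 9.59, 9.73 and 9.64 in wild-type small intestine, against 8.22, 8.39 and 8.42 in wild-type colon. The tissues did not overlap, and Cpe was higher in small intestine by 1.31 ± 0.08 in both genotypes (limma adjusted p = 4.68e-07 in mutant and 4.07e-07 in wild-type mice). Pcsk1n, an inhibitor of the convertase Pcsk1, lay just above the limit and differed by -0.01 ± 0.04 in mutant and 0.02 ± 0.04 in wild-type mice.

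Among the granule proteins, secretogranin II was higher in small intestine. Scg2 read 8.35, 8.17 and 8.24 in mutant small intestine, against 7.73, 7.76 and 7.79 in mutant colon. It read 8.37, 8.24 and 8.31 in wild-type small intestine, against 7.75, 7.77 and 7.76 in wild-type colon. Only 1 colon array was above the limit, and the differences were 0.50 ± 0.05 in mutant mice and at least 1.44-fold in wild-type mice (limma adjusted p = 1.07e-05 and 4.26e-06). A second Scg2 probe was bright on 0 arrays. Scg3 was faint in small intestine and dim on all 3 mutant colon arrays, and it was called in mutant mice alone, at least 1.04-fold higher (limma adjusted p = 0.0371, against 0.0855 in wild-type mice). That call was lost without mutant colon 1 or 3, small-intestinal mutant 1 or 3 or small-intestinal wild type 3 (adjusted p from 0.0536 to 0.131), and whether the genotypes differ in it gave an adjusted p = 0.981.

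Chromogranin A, the general marker of endocrine granules, was not higher in small intestine. Chga read 8.56, 8.43 and 8.54 in mutant small intestine, against 8.66, 8.71 and 8.38 in mutant colon. It read 8.48, 8.53 and 8.57 in wild-type small intestine, against 8.61, 8.92 and 9.02 in wild-type colon. On this probe, which stands for the gene, the mutant groups overlapped, and the wild-type groups did not. The difference was -0.07 ± 0.11 in mutant mice and -0.32 ± 0.11 in wild-type mice (limma adjusted p = 0.649 and 0.0344), and the test of the gap between these, 0.25 ± 0.15, did not pass (limma adjusted p = 0.919). The wild-type call was lost without wild-type colon 2 or 3 or any 1 wild-type small-intestinal array (adjusted p from 0.0611 to 0.124). Further Chga probes gave 0.02 and -0.09 in mutant and -0.16 and -0.25 in wild-type mice, small intestine minus colon. On the probe with -0.16 the wild-type tissues overlapped.

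Chromogranin B was bright in both tissues. Chgb read 10.09, 9.94 and 10.07 in mutant small intestine, against 9.74, 9.997 and 9.46 in mutant colon, and 10.01, 10.10 and 10.01 in wild-type small intestine, against 9.68, 9.93 and 10.35 in wild-type colon. The colon arrays spread more widely than the small-intestinal ones, and neither difference, 0.30 ± 0.16 in mutant and 0.05 ± 0.16 in wild-type mice, passed. Scg5, a chaperone of the convertase Pcsk2, and Vgf differed by less than 0.05 in either genotype and were not called.

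Tph1, which makes serotonin in enterochromaffin cells, read 8.15, 8.07 and 7.95 in mutant small intestine, against 8.16, 8.22 and 8.10 in mutant colon. It read 8.06, 8.12 and 8.04 in wild-type small intestine, against 8.16, 8.22 and 8.28 in wild-type colon. The wild-type groups did not overlap, but the differences of -0.11 ± 0.05 in mutant and -0.15 ± 0.05 in wild-type mice did not pass (limma adjusted p = 0.142 and 0.0520). Tph1 is also made by mast cells, and of 5 mast cell markers Mcpt1 was bright on 7 arrays and Cpa3 on 5, while Tpsb2, Mcpt2 and Mcpt4 were bright on 0. Neither Mcpt1 nor Cpa3 was called between the tissues, with a summed signal of the list of 10.17 to 64.68 in mutant and 21.25 to 63.92 in wild-type small intestine, against 26.79 to 46.99 in mutant and 25.83 to 50.83 in wild-type colon. The part of mast cells in the Tph1 values was not tested. Scgn, secretagogin, did not pass in either genotype.

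**Figure D2:**
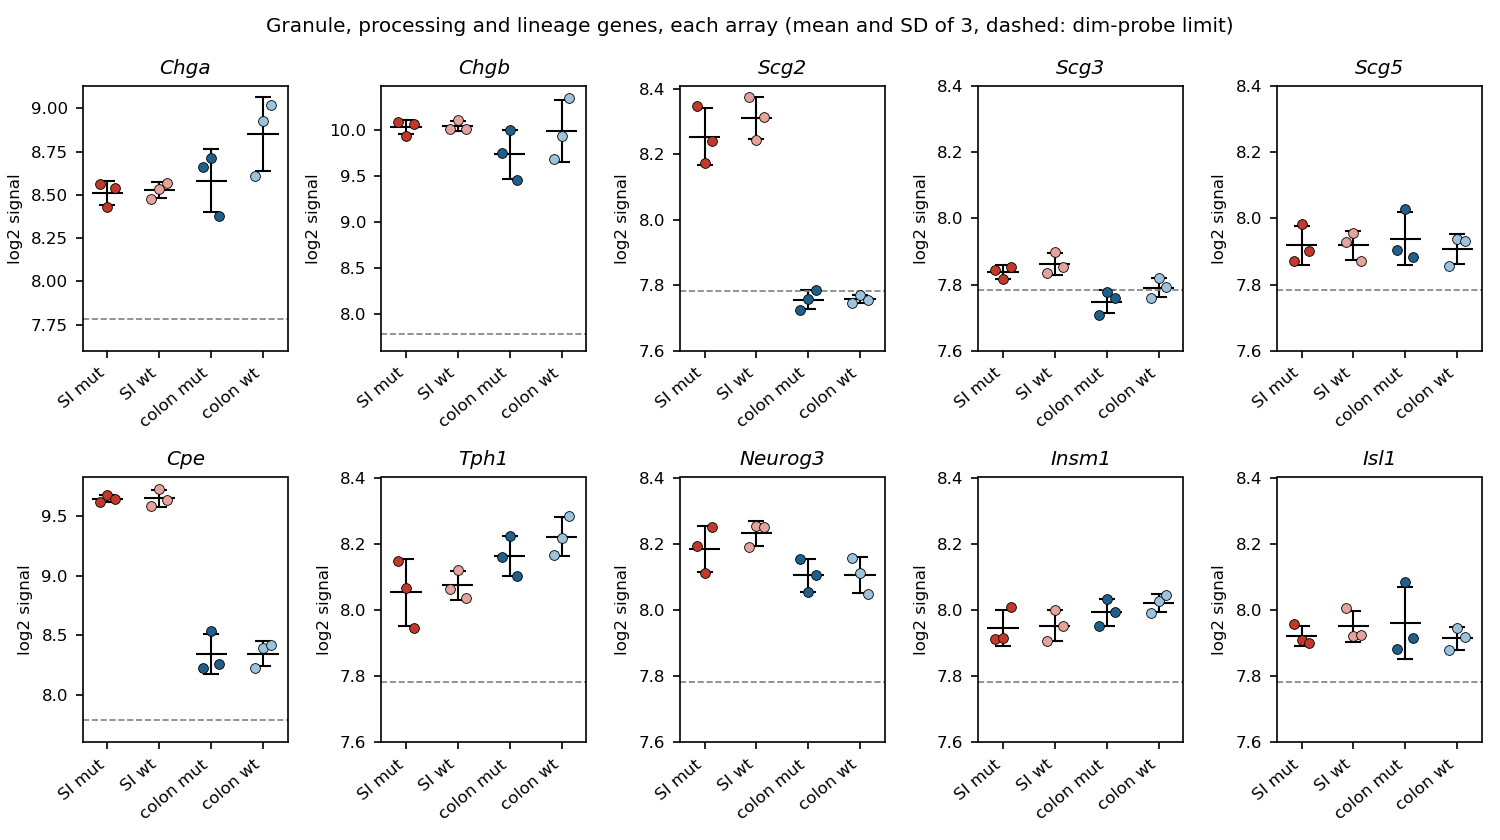
Deposited log2 values of 10 genes of granules, processing, serotonin synthesis and transcription, 1 panel per gene. Dots are single arrays of mutant small intestine (SI mut), wild-type small intestine (SI wt), mutant colon (colon mut) and wild-type colon (colon wt), with mean and SD of 3 arrays and the dim-probe limit of 7.78 as a dashed line. Cpe and Scg2 separate the tissues, while Chga and Chgb spread within colon.

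The transcription factors lay close to the limit. Neurog3 read 8.19, 8.11 and 8.25 in mutant small intestine, against 8.15, 8.05 and 8.10 in mutant colon, and 8.19, 8.25 and 8.25 in wild-type small intestine, against 8.16, 8.11 and 8.05 in wild-type colon. It was higher in wild-type small intestine by 0.13 ± 0.04 (limma adjusted p = 0.0430), while in mutant mice the groups overlapped and the difference of 0.08 ± 0.04 did not pass (limma adjusted p = 0.186). That call was lost without wild-type colon 2 or 3, wild-type small-intestinal 2 or 3, mutant colon 3 or mutant small-intestinal 1 (adjusted p from 0.0539 to 0.144). Rfx6 differed by 0.07 ± 0.03 in mutant and 0.06 ± 0.03 in wild-type mice and Nkx2-2 by 0.05 ± 0.03 and 0.06 ± 0.03, all short of the threshold. Isl1 and Insm1 were not called.

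**Figure D3:**
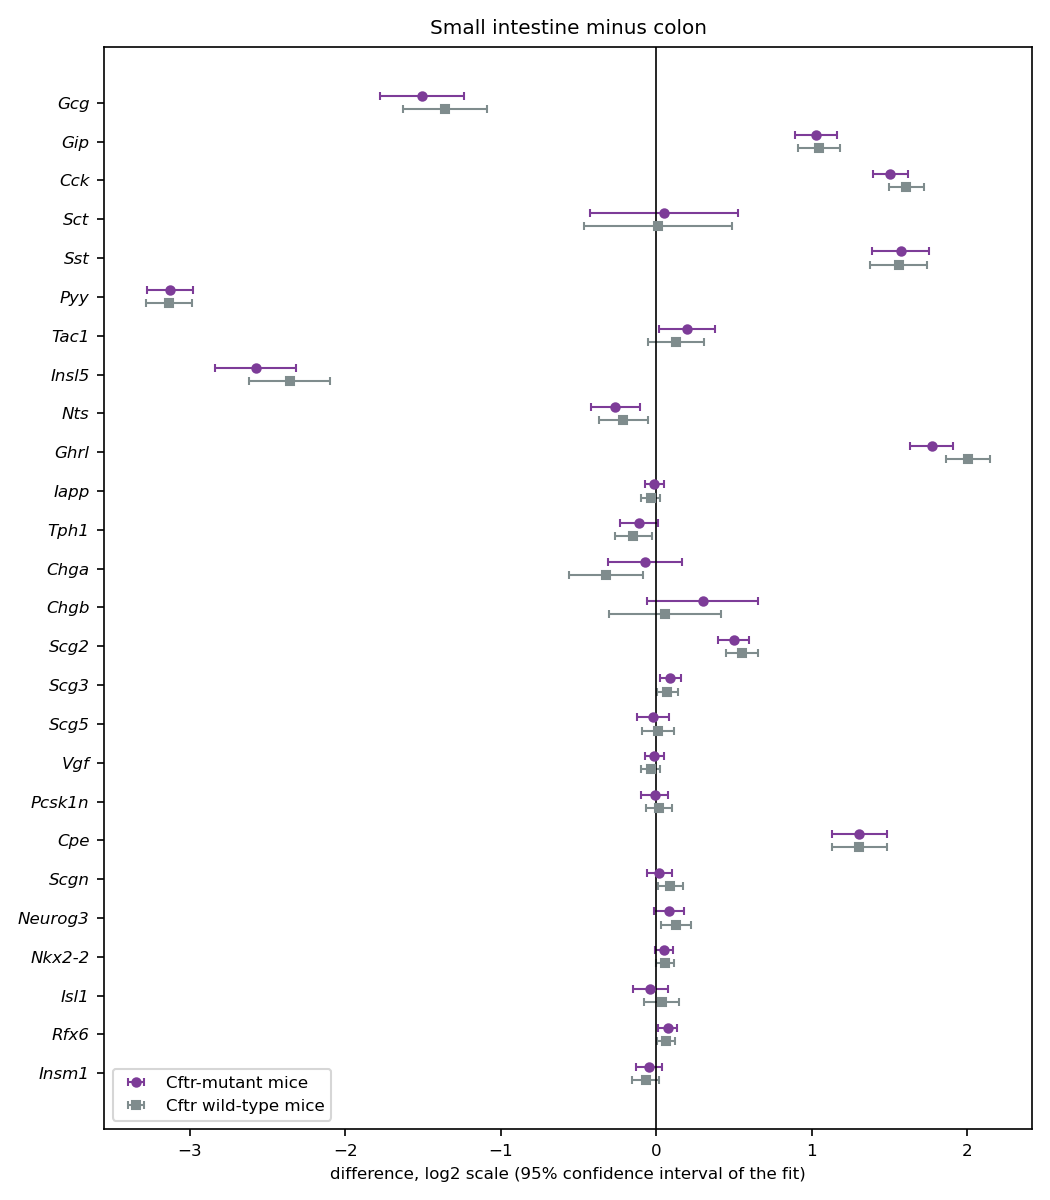
Small intestine minus colon for the 26 members tested, as a log2 difference with its 95% interval, in mutant and wild-type mice. The hormones Pyy, Insl5 and Gcg lie far to the lower side, Ghrl, Cck, Sst, Gip and Cpe to the higher side, and most others lie near 0.

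Markers of other cell types differed between the tissues as well. All 8 tested markers of absorptive enterocytes, of 10 listed, were higher in small intestine, with a median difference of 4.67 in mutant and 4.89 in wild-type mice. Their summed signal was 94090 to 94620 in mutant and 95580 to 103800 in wild-type small intestine, against 3793 to 5787 in mutant and 3777 to 4264 in wild-type colon. Of 8 gastric and Brunner gland markers 3 were tested, and in each genotype Pgc was higher and Muc5ac lower in small intestine. Of 4 glial markers 1, Sox10, was tested and was higher in small intestine in each genotype, and of 6 tuft cell markers 4 were tested and 0 called. In bulk RNA, fewer cells of a type and less RNA per cell cannot be told apart. The summed signal above the floor of 8 smooth muscle markers was 18700 to 21650 in mutant and 20000 to 21200 in wild-type small intestine, against 207.6 to 415.2 in mutant and 200.6 to 442.7 in wild-type colon. All 8 muscle markers were higher in small intestine. Of 13 enteric neuron markers 9 were tested and 3 (Stmn2, Prph and Uchl1) were higher in small intestine in each genotype, a share of 33.3% against 39.6% and 41.4% of all features in mutant and wild-type mice. Their list had a summed signal of 189.8 to 217.5 in mutant and 201.4 to 227.4 in wild-type small intestine, against 90.84 to 115.3 in mutant and 114.4 to 119.8 in wild-type colon. Ret was bright on all 12 arrays and not called, and Elavl4 and Nefl, further markers of neurons, were bright on at most 1 array. The part of neurons in the values of Sst, Cpe, Scg2 and Tac1 was not tested. Among pan-epithelial markers Epcam was not called, Krt8, Krt18 and Cdh1 were lower in small intestine and Krt20 was higher.

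Genes of the pancreas, which lies against the duodenum and holds endocrine cells too, were high on some arrays. The acinar protease gene Cela2a read 11.90, 13.32 and 7.77 in mutant small intestine and 7.79, 13.85 and 7.80 in wild-type small intestine, and at most 7.74 in colon. Mutant arrays 1 and 2 and wild-type array 2 thus stood apart. Not all genes of the acinar list followed this, since Sycn read 7.82 to 10.30 in small intestine and 11.39 to 13.74 in colon and Cela1 was bright on every array. Of 7 islet markers Ppy, the pancreatic polypeptide gene, was bright on 11 arrays, Slc30a8 on 6 and Mafa on 3, while Ins2 and Nkx6-1 were bright on 0 of 12. Ppy was lower in mutant small intestine than in mutant colon, by -0.25 ± 0.05 (limma adjusted p = 0.00164), and the other islet markers tested were not called. Sst on those 3 arrays (10.12, 10.03 and 10.21) lay within the range of the other 3 except for 10.03. Without these 3 arrays only mutant small-intestinal array 3 and wild-type small-intestinal arrays 1 and 3 remain, so the counts of that fit are not given.

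**Figure D4:**
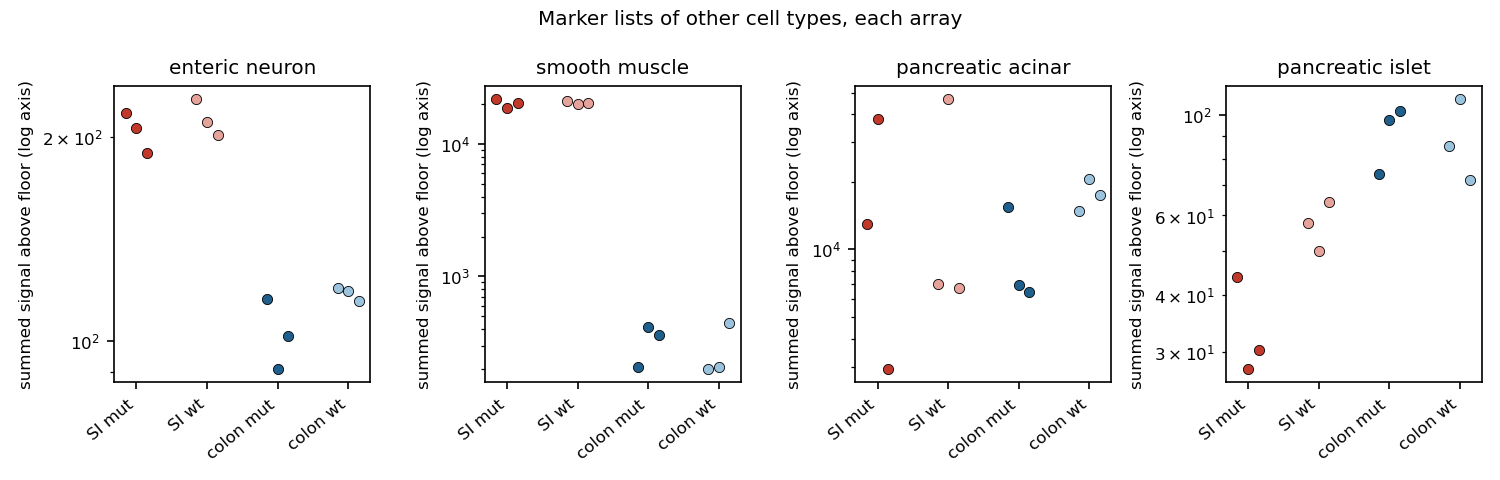
Summed signal above the floor of marker genes of enteric neurons, smooth muscle, pancreatic acini and pancreatic islets, on a log axis. Each dot is 1 array of mutant small intestine (SI mut), wild-type small intestine (SI wt), mutant colon (colon mut) or wild-type colon (colon wt). The muscle and neuron sums are higher on every small-intestinal array than on any colon array, and the islet sum is lower. The acinar sum stands out on 2 small-intestinal arrays, at 38099 in mutant and 46602 in wild-type mice.

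No member was called between the genotypes in either tissue. In small intestine limma called 0 of 26 members between mutant and wild-type mice, against 0.679% of all features (0.17% higher and 0.509% lower), and 1 member had an unadjusted p under 0.05, against 8.17% of all features. That was Scgn, which read 8.01, 7.94 and 7.94 in mutant against 8.05, 8.09 and 7.99 in wild-type mice, a difference of -0.08 ± 0.04 (limma adjusted p = 0.595). The groups overlapped, and its other 2 probes gave -0.00 and 0.05. For 0 members did the 2 groups fail to overlap, against 13.5% of all features.

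The intervals limit what could have been missed in small intestine. Gcg was -0.22 ± 0.12 (95% interval -0.48 to 0.05), with 2 of the 3 mutant arrays below every wild-type array and the highest mutant array inside the wild-type range (limma adjusted p = 0.770). Ghrl was -0.13 ± 0.06 (limma adjusted p = 0.671), with mutant array 1 above every wild-type array and the other 2 below them. Leaving out that mutant array gave -0.23 and the smallest adjusted p of a member over the alternatives, 0.0598. The second Ghrl probe had the opposite sign, at 0.03. For Gip the interval ran from -0.13 to 0.14, for Cck from -0.08 to 0.14, for Sst from -0.21 to 0.15 and for Sct from -0.50 to 0.45. Differences of Neurog3 (-0.05 ± 0.04), Chga (-0.02 ± 0.11), Chgb (-0.01 ± 0.16) and Tph1 (-0.02 ± 0.05) were smaller than or close to their SE.

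In colon limma also called 0 of 26 members, against 0% of all features, and 2 members had an unadjusted p under 0.05, against 5.1% of all features. Chga had a lower mean in mutant colon but was not called, at -0.27 ± 0.11 (95% interval -0.51 to -0.03, limma adjusted p = 0.938). Its 3 probes, read on the same arrays, gave -0.21, -0.25 and -0.27. On the probe that stands for the gene, mutant arrays 1 and 2 lay between the wild-type values, and mutant array 3 lay below them all. A further Chga probe read 8.26, 8.23 and 7.98 in mutant against 8.34, 8.37 and 8.50 in wild-type colon, without overlap. On the remaining Chga probe the groups overlapped. Cck was 0.13 ± 0.05 (limma adjusted p = 0.938), with wild-type array 3 level with mutant array 2. By the probe that stands for each gene, Ghrl was the 1 member whose colon groups did not overlap, against 8.87% of all features. It differed by 0.11 ± 0.06, close to the limit, and on its second probe the colon groups overlapped. Insl5 was 0.21 ± 0.12 and Chgb -0.26 ± 0.16, both with overlapping groups.

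Single colon arrays stood at the end of the range for several members at once. Of the 18 members bright on every colon array, wild-type colon 3 was the highest of 6 for Sct, Tph1, Chga, Chgb and Insm1. Mutant colon 3 was the lowest for Gcg, Sct, Tph1, Chga, Chgb and Scgn. Mutant colon 2 was the highest for Gcg, Pyy, Insl5, Nts, Scg5, Cpe and Isl1. The same arrays also stood at the other end, mutant colon 3 as the highest for Gip, Cck and Tac1 and wild-type colon 3 as the lowest for Gip, Insl5 and Neurog3. Of the 22 members bright on every small-intestinal array, wild-type small intestine 2 was the highest for 8 and the lowest for 1. Mutant small intestine 2 was the lowest for 7 and the highest for 2. How often each array was the highest or lowest over all features was not counted, so these counts are not set apart from the arrays as a whole. The arrays at the ends of the range for Chga and Chgb, wild-type colon 3 and mutant colon 3, were thus also the ends for Sct and Tph1.

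**Figure D5:**
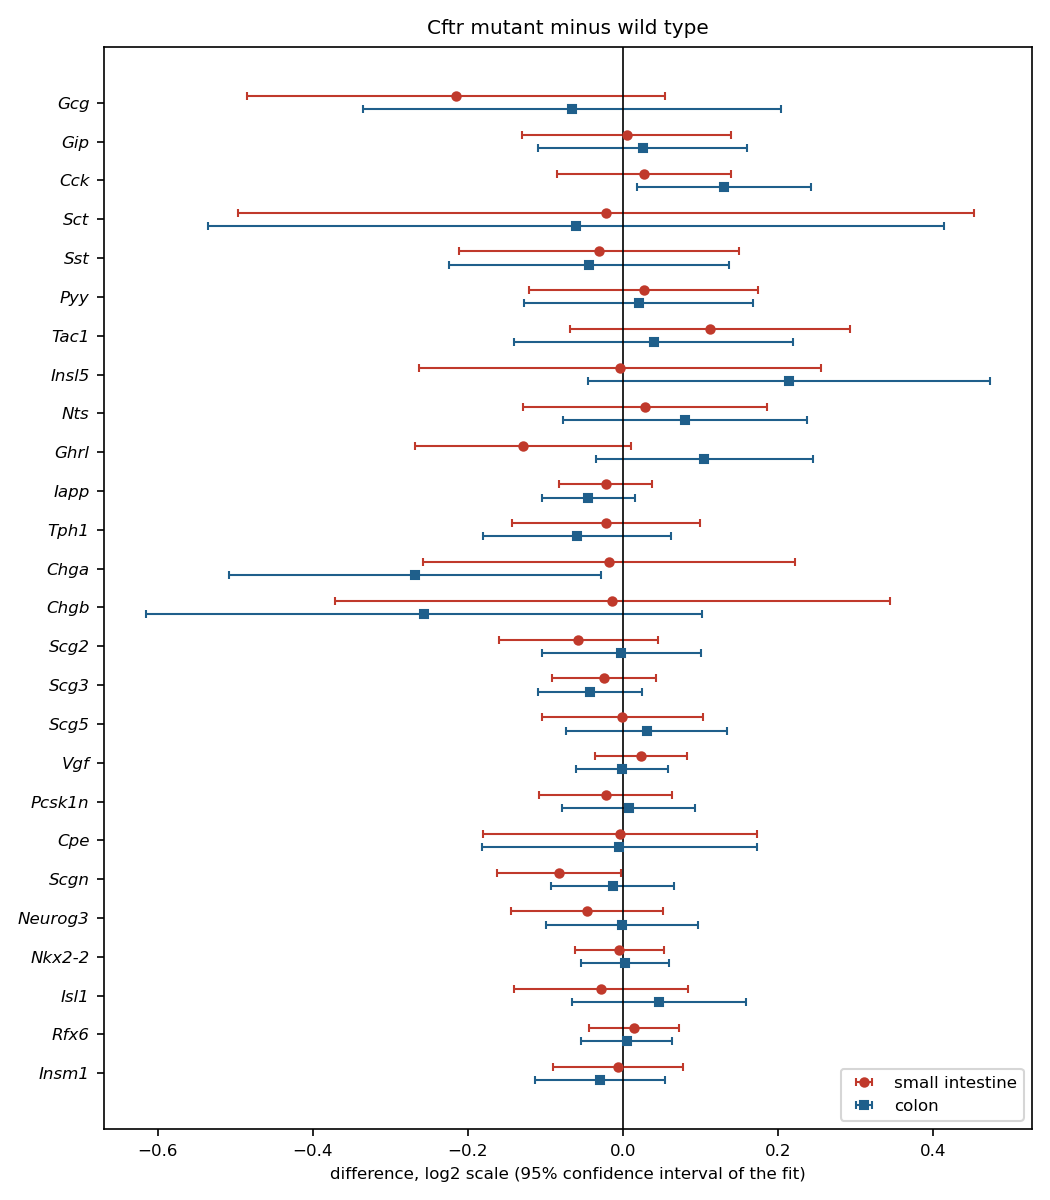
Mutant minus wild type for the 26 members tested, as a log2 difference with its 95% interval, in small intestine and in colon. No member passed the adjusted threshold in either tissue, and the widest intervals are those of Sct, Chgb and Gcg.

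Whether the genotype difference itself depended on tissue was tested as an interaction. Limma called 0 of 26 members, against 0% of all features, and 1 had an unadjusted p under 0.05, against 5.93% of all features. That was Ghrl, at -0.23 ± 0.09 (small-intestinal minus colonic genotype difference, limma adjusted p = 0.777). It combines the lower mean in mutant small intestine with the higher mean in mutant colon, where the gene sat at the limit. The second Ghrl probe gave 0.03 in small intestine and 0.07 in colon, so it does not share the lower mean in mutant small intestine.

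Genes that work around the hormones were compared in the same way. Among nutrient sensors 5 of 16 were tested. The glucose transporter Slc5a1 was higher in small intestine by 3.13 ± 0.15 in mutant and 2.99 ± 0.15 in wild-type mice, and the fatty acid receptors Ffar2 and Ffar4, known from L cells, were lower. Ffar2 differed by -2.01 ± 0.11 in mutant and -1.90 ± 0.11 in wild-type mice, and Ffar4 by -2.13 ± 0.25 and -1.84 ± 0.25 in those genotypes. A further fatty acid receptor, Ffar3, overlapped between the tissues in both genotypes. It read 8.41, 8.38 and 8.38 in mutant small intestine, against 8.46, 8.36 and 8.36 in mutant colon. In wild-type mice it read 8.46, 8.25 and 8.30 in small intestine, against 8.25, 8.49 and 8.43 in colon. In all, 1 was higher and 2 were lower in small intestine of mutant mice, and 1 was higher and 3 lower in that of wild-type mice, out of 5 tested and beside 39.6% and 41.4% of all features called.

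Of 13 tested genes of granule exocytosis and amine handling, 1 was higher and 4 were lower in small intestine of mutant mice, and 2 were higher and 5 lower in wild-type mice. These are 38.5% and 53.85% of the genes tested, beside 39.6% and 41.4% of all features. Cadps2, a calcium-dependent factor that primes granules for release, was lower by -1.32 ± 0.06 in mutant and -1.33 ± 0.06 in wild-type mice, and the granule GTPase Rab27a by -0.91 ± 0.10 and -0.87 ± 0.10. Of 7 other regulators of the lineage, 0 were higher and 3 lower in mutant mice, and 1 was higher and 3 lower in wild-type mice. Their shares were 42.9% and 57.1% of the genes tested, beside 39.6% and 41.4% of all features. Foxa1, a forkhead factor of the secretory lineage, was lower by -1.81 ± 0.07 in mutant and -1.94 ± 0.07 in wild-type mice, small intestine against colon.

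Of 11 tested hormone receptors and uptake genes, 2 were higher and 3 lower in each genotype, 45.45% beside 39.6% and 41.4% of all features in mutant and wild-type mice. The serotonin transporter Slc6a4 was higher in small intestine by 1.24 ± 0.07 in mutant and 1.14 ± 0.07 in wild-type mice, and the somatostatin receptor Sstr2 was lower by -0.64 ± 0.08 and -0.52 ± 0.08. Of 7 other peptide genes, 4 were higher and 1 lower in mutant mice, and 3 were higher and 0 lower in wild-type mice. These are 71.4% and 42.9% of the genes tested, beside 39.6% and 41.4% of all features. Vip, a peptide of gut neurons, read 9.26, 8.67 and 9.37 in mutant and 8.88, 8.80 and 8.73 in wild-type small intestine, and was dim on every colon array. Gal, another neuronal peptide, and Nmu were dim in colon as well.

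Only 1 gene of these lists passed between the genotypes. Tested were 13 genes of granule exocytosis and amine handling, 5 nutrient sensors, 11 receptors and uptake genes, 7 lineage regulators and 7 other peptide genes. Of all features 0.679% were called between the genotypes in small intestine. Ddc, the decarboxylase that completes serotonin synthesis and is also abundant in enterocytes, read 11.03, 11.13 and 11.16 in mutant small intestine, against 11.36, 11.51 and 11.38 in wild-type small intestine. All mutant arrays lay below all wild-type arrays, with a difference of -0.31 ± 0.05 (limma adjusted p = 0.0334). These groups did not overlap for 13.5% of all features. In colon the values were 9.87, 9.88 and 9.91 in mutant and 9.91, 9.92 and 9.79 in wild-type mice. A second bright Ddc probe read 11.26, 10.89 and 10.96 in mutant against 11.04, 11.39 and 11.24 in wild-type small intestine, with overlapping groups. The remaining Ddc probe, close to the limit, read 7.78, 7.78 and 7.79 in mutant against 7.86, 7.84 and 7.86 in wild-type small intestine, without overlap. The call was lost in 16 of 24 alternatives, among them without any 1 small-intestinal array (adjusted p from 0.0522 to 0.0938) and without any 1 colon array other than wild-type colon 3 (from 0.0557 to 0.0587), and the difference between tissues did not pass (limma adjusted p = 0.3435).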

How the data were processed

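RNA of 12 tissue samples was labelled and hybridised to Illumina mouse beadchips, per the labels' protocols. The authors deposited log2 values per probe whose columns share nearly 1 distribution, with medians of 7.75603 to 7.75663. Limma is the tool in the submitters' processing notes, with no version stated there. How background was treated was not known here. A further table holds 24 columns that match no sample's labels, and these were not used.

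The mode of all values, 7.70, plus 3 times the mirrored SD below it (0.0278) gave a dim-probe limit of 7.78. Probes above it on at least 3 arrays were kept (22737), and the one with the highest mean stood for its gene. Groups came from the labels. The deposited log2 values entered limma (version 3.58.1, under R 4.3.3) as 1 coefficient for each of 4 groups, which left 8 residual degrees of freedom and a prior of 2.15. P-values are two-sided, adjusted by Benjamini-Hochberg over 15909 features, with a threshold of 0.05. A bound sets the brighter mean against the lowest bright signal of the dim group's arrays. The fit was tested on simulated data with independent noise for each feature, so deviations shared across an array were not simulated. The number of arrays limits the precision.

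All members are accounted for by role. Of each pathway list at most 4 genes with the smallest p are named, and of each marker list genes above the limit that define the cell type. Marker genes named as dim, and Ffar3, were added after their values were seen. The members and lists were chosen with earlier results of these data known. Platform symbols were checked through Entrez numbers, which matched 34807 probes. Alternatives changed the limit, the probe, the variance prior, array weights, the groups fitted, centring, floor subtraction, blocks, the threshold and the arrays.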

Additional observations from a re-analysis of the deposited data

How the results depend on the processing

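The total tissue counts moved by no more than 1.5 times under any alternative run, while the lower calls in wild-type mice went down to 3, against 5. In mutant mice 11 members were called, 10 to 12 with 1 array left out and 10 to 13 under the other settings. In wild-type mice 12 were called, 9 to 13 with 1 array left out and 9 to 16 otherwise. Gcg, Gip, Cck, Sst, Pyy, Insl5, Ghrl, Cpe and Scg2 kept their call in both genotypes in all 25 alternatives, and none of the members' calls reversed. With the floor subtracted and an offset of 16, differences of genes dim in 1 tissue grew, to -6.08 in mutant and -6.34 in wild-type mice for Pyy, 4.06 and 4.99 for Ghrl, 3.16 and 3.77 for Cck, 2.85 and 3.01 for Gip, and 2.23 and 2.35 for Scg2. The calls of Nts, Chga and Neurog3 in wild-type mice were lost in 9, 8 and 12 alternatives, and those of Scg3 and Nts in mutant mice in 9 and 2. The genotype and interaction counts stayed 0 throughout. The alternatives include a fit without the 3 arrays of high acinar signal, which kept 1 mutant small-intestinal array.

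Same-numbered small-intestinal and colon arrays did not deviate together (Pearson correlations over features -0.00, -0.04 and 0.16 in mutant and -0.01, -0.01 and 0.06 in wild-type mice). Between genotypes the correlations were 0.05, 0.37 and 0.33 in small intestine and 0.14, -0.21 and -0.04 in colon. No label ties the numbers to mice, and not every pair was positively correlated, so the numbers were not used to pair samples, which does not show that they are unrelated. With the replicate number as a block, 12 members were called between tissues in mutant and 9 in wild-type mice, and with genotype and number as a block 11 and 10. The replicate block left the genotype counts at 0. Over all features the small-intestinal genotype count was 108, against 57 with the replicate block, 19 with the floor subtracted and 3 with only those groups fitted. It was 2 without wild-type array 1, 0 without wild-type array 3 and 179 with array weights. The fit without the 3 arrays of high acinar signal kept 1 mutant small-intestinal array, so its count is not given. Near the floor, small differences of faint genes such as the transcription factors cannot be resolved.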
